A study of Saccharomyces cerevisiae with 10 samples.

Results

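The 10 genes described here encode the enzymes and the repressor through which baker's yeast (Saccharomyces cerevisiae) makes fatty acids and turns them into membrane phospholipids: ACC1, FAS1, FAS2, OLE1, ELO1, INO1, CHO1, CHO2, OPI3 and OPI1. They were taken by gene name from the annotation of the arrays, with 1 probe set each, out of 5654 named genes. All 10 lay above background on all 10 arrays, so none was lost to a filter on low values. Background was the 95th percentile of the fission yeast probes that the arrays also carry.

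Affymetrix arrays, whose model the labels do not name, were used with 3′ amplification to measure RNA of S. cerevisiae strain TMB3500 during an aerobic fed-batch culture. The 5 groups had 2 biological replicates each. They were the start of the feed (0 h), 9 h of feeding with spruce hydrolysate that had not been detoxified, 9 h of feeding with a sugar mixture, and 18 h of each feed. The sugar mixture held glucose, mannose and xylose at levels close to those of the hydrolysate. All cultures shared the strain, a batch phase of 0.7 L on 20 g/L glucose, 30 °C and pH 5, and both feeds ran at a rate that climbed linearly between 0.04 and 0.1 L/h during 16 h. By then 1 L had been added, so the 18 h samples lay after the ramp. What the cultures received between 16 and 18 h is not given. The wording 18 h of feed or feeding follows the sample titles and does not mean that the feed was still running. The comparison of feeds asks how cultures fed the hydrolysate differed from cultures fed this sugar mixture. The comparison with the start asks how each fed group differed from the start. No culture without a feed was sampled at 9 or 18 h. In that comparison the feed, the elapsed time and the move from batch to fed culture therefore cannot be told apart.

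Fatty acid synthesis begins when acetyl-CoA carboxylase makes malonyl-CoA, which the fatty acid synthase complex extends into saturated chains. A desaturase then places a double bond in many of these chains, elongases lengthen some of them, and many enter phosphatidic acid. In yeast, phosphatidic acid is the branch point between storage lipid and phospholipids, which are built through CDP-diacylglycerol. Many of these genes are known to be activated by the Ino2-Ino4 pair and repressed by Opi1 when inositol is plentiful, with INO1 as the classic target.

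Values are log2 intensities after robust multi-array averaging (RMA), so a difference of 1 is a doubling, and the level of a gene is compared only with its own level on other arrays. A gene was called changed when its limma p-value, adjusted over all 5654 genes, was under 0.05. Replicate arrays correlated between 0.971 and 0.996 over all genes. With 2 arrays a group, the number of arrays limits the precision. The largest gap between replicates among the 10 genes was 0.523 log2 units, for CHO2 at the start. In the fed groups the mean of the 9 added hybridization controls lay between 10.64 and 10.93, against 11.87 at the start. The 3′ probes of 8 control genes exceeded their 5′ probes by 1.23 ± 0.0523 log2 units at 18 h of hydrolysate, against 0.599 ± 0.0077 at 18 h of sugar (SD, n = 2 arrays each). At 9 h these gaps were 0.96 ± 0.0489 in hydrolysate and 0.669 ± 0.003 in sugar, and at the start 0.831 ± 0.0749. In these bulk samples, a change in the share of cells that express a gene and a change in its RNA per cell cannot be told apart. The part of these array values in the results below was not tested, beyond the alternative scalings given with them.

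At 18 h of feeding, INO1 and ELO1 were higher in hydrolysate than in sugar, by 4.90-fold and 2.78-fold. ACC1 and FAS2 were lower, by 1.67-fold and 1.33-fold, and the other 6 genes were not called. These 2 of 10 higher genes stand beside 31.2% of all genes called higher in that comparison, and the 2 of 10 lower genes beside 30.8% called lower. In either direction 4 of 10 were called, beside 61.9% of all genes. The calls of ACC1 and FAS2 were lost when a trend with gene length was removed, as given with these genes. The 2 feeds did not overlap in 7 of the 10, against 87.2% of all genes. At 9 h, limma called 0 of 10, where 9.67% of all genes were called, and 1 of the 10, ELO1, had an unadjusted p under 0.05, beside 34.4% of all genes. Both arrays of one feed lay beyond both arrays of the other in 8 of 10 at 9 h, against 65.2% of all genes.

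The change in the feed difference between the times was tested directly. It was called for 3 genes: INO1 and ELO1 gained in hydrolysate relative to sugar, and ACC1 lost. The 2 that gained compare with 14.3% of all genes and the 1 that lost with 13.1%. The median difference at 18 h was -0.07 over the 10 genes and 0.01 over all genes, and at 9 h it was 0.16 over the 10 genes and 0.03 over all genes.

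**Figure D1:**
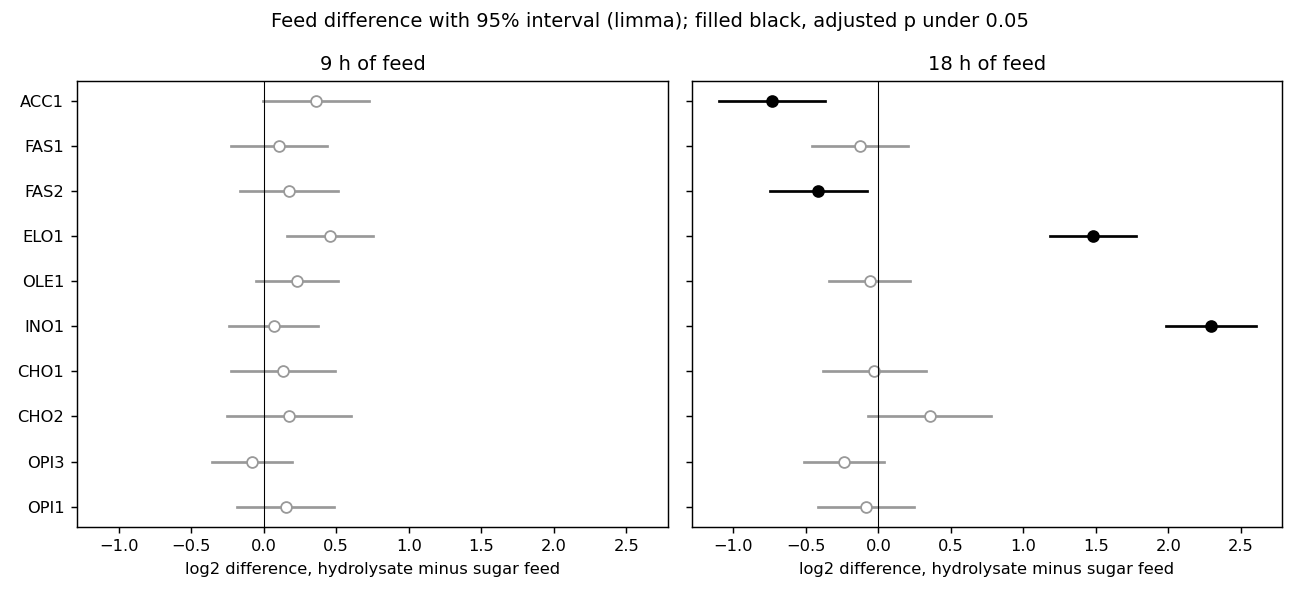
Each point is the log2 difference, hydrolysate minus sugar feed, of 1 of the 10 genes at 9 h (left) and 18 h (right), with its 95% interval from limma; filled black points have an adjusted p under 0.05. At 9 h no point is filled, and at 18 h INO1 and ELO1 lie to the right of 0 while ACC1 and FAS2 lie to the left.

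In both feeds most of the 10 genes stood above their level at the start. In hydrolysate 9 were called higher at 9 h (33.6% of all genes were) and 8 at 18 h (33.2% of all genes). In sugar 7 were called higher at 9 h (33.9% of all genes) and 6 at 18 h (36.8% of all genes), where 2 were called lower (29.7% of all genes). Those 2 were INO1 and ELO1, and with the arrays scaled to the hybridization controls they were at -0.07 (adjusted p = 0.785) and 0.39 (adjusted p = 0.111). The median change was 1.32 at 9 h and 0.97 at 18 h in hydrolysate, where all genes had 0.03 and 0.10. In sugar it was 1.17 at 9 h and 0.76 at 18 h, where all genes had -0.00485 and 0.08. These 4 comparisons share the 2 start arrays, so they do not repeat each other independently.

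**Figure D2:**
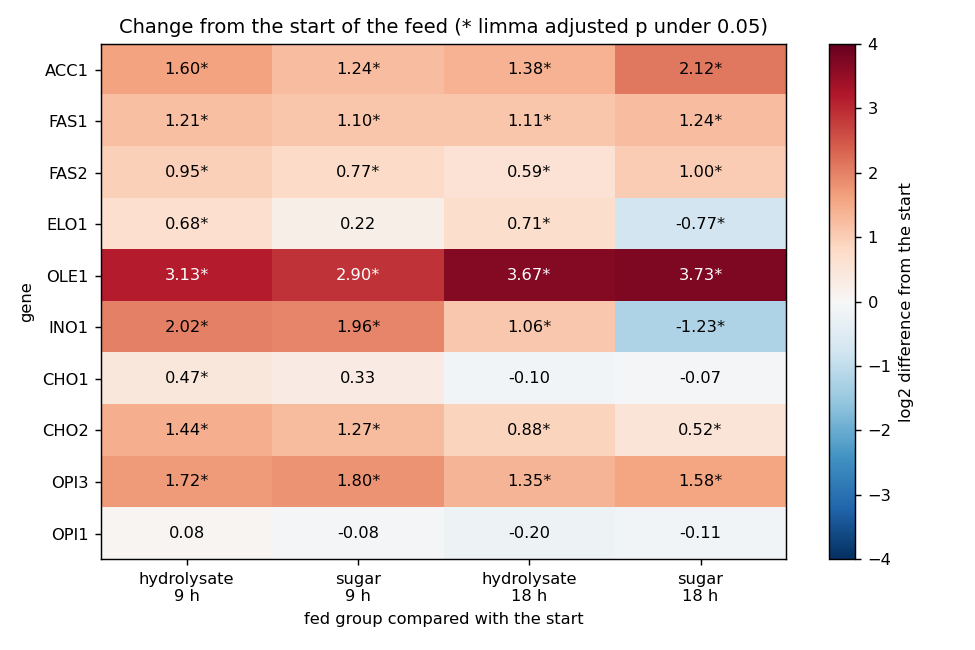
The colour and number of each cell give the log2 difference of 1 of the 10 genes (rows) between a fed group (columns) and the start, and an asterisk marks an adjusted p under 0.05. OLE1 has the largest values, between 2.90 and 3.73, and INO1 and ELO1 are negative only at 18 h of sugar among the cells with an asterisk.

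ACC1, acetyl-CoA carboxylase, makes the malonyl-CoA that every later step of chain building uses. The gene (YNR016C) spans 6702 bp at chrXIV:654673-661374, minus strand, in the coordinates of the authors' table, which equal those of the R64 assembly. ACC1 stood at 12.37 and 12.33 at the start. ACC1 at 9 h stood at 14.01 and 13.89 in hydrolysate, against 13.69 and 13.48 in sugar. ACC1 at 18 h stood at 13.53 and 13.93 in hydrolysate, against 14.43 and 14.50 in sugar. All 8 fed arrays were above both start arrays, and the late sugar arrays were above all others. The feeds did not overlap at either time, but their order turned round: hydrolysate was the higher feed at 9 h and the lower at 18 h.

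At 9 h the ACC1 difference was 0.36 ± 0.16 (SE, adjusted p = 0.148), which was not called. At 18 h it was -0.74 ± 0.16 (adjusted p = 0.0041), and the change between the times was -1.10 ± 0.226 (adjusted p = 0.0111). Without the second 9 h sugar replicate that change was -0.99 (adjusted p = 0.0501). ACC1 rose further between 9 and 18 h in sugar, by 0.88 (adjusted p = 0.00163). In hydrolysate the same step was -0.22, within the gap of 0.395 between the late hydrolysate replicates, and was not called. Against the start, ACC1 was 4.35-fold higher at 18 h of sugar and 2.61-fold higher at 18 h of hydrolysate.

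FAS1 and FAS2 encode the beta and alpha subunits of the fatty acid synthase, which assemble into 1 complex. FAS1 (YKL182W) lies at chrXI:100671-106826, plus strand, and FAS2 (YPL231W) at chrXVI:108652-114315, plus strand. FAS1 stood at 13.17 and 12.91 at the start. It stood at 14.27 and 14.23 after 9 h of hydrolysate, against 14.16 and 14.13 after 9 h of sugar. FAS1 at 18 h stood at 14.02 and 14.29 in hydrolysate, against 14.27 and 14.30 in sugar. All fed arrays lay above the start, and neighbouring fed groups overlapped in the order of their means. The feed difference of FAS1 was 0.11 at 9 h (adjusted p = 0.63) and -0.13 at 18 h (adjusted p = 0.466, 95% interval -0.45 to 0.20).

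FAS2 stood at 12.63 and 12.75 at the start. FAS2 at 9 h stood at 13.64 and 13.63 in hydrolysate, against 13.50 and 13.42 in sugar. FAS2 at 18 h stood at 13.09 and 13.46 in hydrolysate, against 13.65 and 13.73 in sugar. Late hydrolysate was the fed group nearest to the start, though both its arrays stayed above it. The difference at 18 h was -0.41 ± 0.147 (adjusted p = 0.0372). This call was lost in 5 of the 10 fits without 1 array: without either 9 h sugar replicate, without either late sugar replicate, and without the first late hydrolysate replicate, when the difference was -0.23 (adjusted p = 0.253). The 18 h call was also lost in a fit of only the arrays compared (adjusted p = 0.0586). At 9 h the difference was 0.18 (adjusted p = 0.424). The change between times, -0.59, was not called (adjusted p = 0.0673). It passed the threshold with another prior (adjusted p = 0.0371) and was -0.77 without the second late hydrolysate replicate. With the length trend removed it was 0.03 (adjusted p = 0.929). From the start, both subunits rose in all 4 fed groups, FAS1 by 1.10 to 1.24 and FAS2 by 0.59 to 1.00.

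ACC1, FAS1 and FAS2 are among the longest yeast genes, and gene length moved with the feed difference at 18 h. The 66 other genes longer than 5 kb had a median difference of -0.61 (quartiles -1.05 and -0.19), against 0.02 for 5525 genes of 5 kb or shorter. At 9 h the medians were 0.05 for the long genes and 0.03 for the shorter ones. Between 9 and 18 h of sugar the medians were 1.09 for the long genes and 0.08 for the shorter ones. At 18 h of sugar against the start they were 0.63 for the long genes and 0.07 for the shorter ones. At 18 h of hydrolysate against the start they were 0.03 and 0.10. The 3′ to 5′ gaps of the control genes also differed between the feeds, at 9 h (0.96 in hydrolysate, 0.669 in sugar) as well as at 18 h (1.23 and 0.599). Whether these gaps bear on the length trend was not tested. With the length trend removed from each array, the 18 h feed difference was -0.05 for ACC1 (adjusted p = 0.777), 0.21 for FAS2 (adjusted p = 0.225) and 0.53 for FAS1 (adjusted p = 0.0202). The rise of ACC1 between 9 and 18 h of sugar was then 0.04 (adjusted p = 0.831), and the change in its feed difference was -0.41 (adjusted p = 0.185). The feed and time differences of these 3 genes at 18 h therefore depend on whether that trend is kept. Against the start at 18 h of sugar, ACC1 kept its call without the trend, while FAS1 (0.20, adjusted p = 0.305) and FAS2 (-0.01, adjusted p = 0.962) did not. At 18 h of hydrolysate FAS2 also lost its call (0.20, adjusted p = 0.26).

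**Figure D3:**
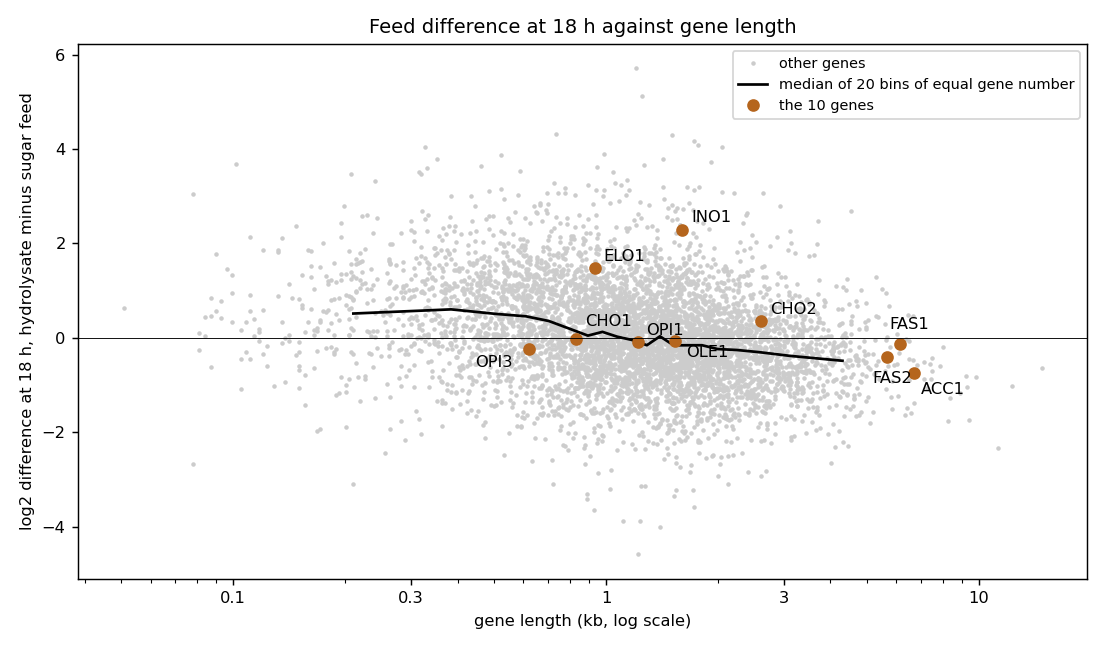
Each grey dot is a gene, placed by its length in kb on a log axis and by its log2 difference at 18 h, hydrolysate minus sugar feed; the line is the median of bins of equal gene number and the large points are the 10 genes. The line slopes downward with length, ACC1, FAS1 and FAS2 lie at the long end, and INO1 and ELO1 lie far above the line at medium length.

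OLE1 encodes the only fatty acid desaturase of S. cerevisiae, an oxygen-dependent enzyme of the endoplasmic reticulum that makes palmitoleic and oleic acid. The gene (YGL055W) lies at chrVII:398628-400160, plus strand. OLE1 stood at 10.58 and 10.75 at the start. OLE1 at 9 h stood at 13.85 and 13.74 in hydrolysate, against 13.59 and 13.53 in sugar. OLE1 at 18 h stood at 14.31 and 14.36 in hydrolysate, against 14.42 and 14.38 in sugar. Every fed array was far above both start arrays, and both feeds were higher at 18 h than at 9 h. OLE1 had the widest range of group means of the 10 genes, 3.73 log2 units.

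OLE1 rose 8.74-fold at 9 h of hydrolysate (adjusted p = 2.88e-06) and 7.45-fold at 9 h of sugar (adjusted p = 2.54e-06). At 18 h it was 12.7-fold above the start in hydrolysate and 13.3-fold in sugar. From 9 to 18 h it rose by a further 0.54 in hydrolysate (adjusted p = 0.0111) and 0.83 in sugar (adjusted p = 0.000549). The step in hydrolysate missed the threshold without the second late hydrolysate replicate (adjusted p = 0.0614) and in a fit of only the arrays compared (adjusted p = 0.0533). Scaled to the hybridization controls it was 0.25 (adjusted p = 0.423). The feeds were not told apart, with a difference of 0.23 at 9 h (adjusted p = 0.217) and -0.06 at 18 h (adjusted p = 0.688, 95% interval -0.34 to 0.22).

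SPT23 and MGA2 encode the membrane-bound activators known to switch OLE1 on when membranes are too saturated. SPT23 was lower at 18 h of hydrolysate than of sugar, by 0.85 (log2 difference -0.85, adjusted p = 0.00621), with 0.41 at 9 h (adjusted p = 0.188). The change in its feed difference was -1.26 (adjusted p = 0.0153), a call kept in 7 of the 10 fits without 1 array. MGA2 differed by 0.70 at 9 h (adjusted p = 0.123) and -0.54 at 18 h (adjusted p = 0.127), and neither was called. The change in its feed difference was -1.24 and was not called either. That change passed the threshold with another prior (adjusted p = 0.0413), without dim genes (adjusted p = 0.0497) and with median scaling (adjusted p = 0.0484). Scaled to the hybridization controls, the change was -1.47 (adjusted p = 0.0331) and the 18 h difference -0.77 (adjusted p = 0.0479). Without the second late hydrolysate replicate they were -1.69 and -0.99.

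ELO1 encodes an elongase of medium-chain acids, and its relatives ELO2 and ELO3 encode elongases for long and very long chains, which enter sphingolipids. ELO1 (YJL196C) lies at chrX:67850-68782, minus strand. It stood at 11.78 and 11.88 at the start. ELO1 at 9 h stood at 12.57 and 12.45 in hydrolysate, against 12.02 and 12.09 in sugar. ELO1 at 18 h stood at 12.57 and 12.51 in hydrolysate, against 11.17 and 10.96 in sugar. Both hydrolysate groups were above the start and overlapped each other, whereas late sugar was below every other array.

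The ELO1 difference was 0.46 ± 0.13 at 9 h (adjusted p = 0.0582). It passed the threshold there only without the second 9 h hydrolysate replicate (adjusted p = 0.0419) among the 10 fits without 1 array. At 18 h it was 1.48 ± 0.13 (adjusted p = 0.0001), a call that every other setting kept, with values between 1.25 and 1.53 under other processing and between 1.37 and 1.58 without 1 array. The change between the times was 1.02 ± 0.183 (adjusted p = 0.00771). With the arrays scaled to the hybridization controls this change was 0.78 and missed the threshold (adjusted p = 0.091). Between 9 and 18 h ELO1 fell in sugar by 0.99 (adjusted p = 0.000305), while the step in hydrolysate was 0.03 and was not called.

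ELO2 and ELO3 followed another course. ELO3 stood at 9.17 and 9.37 at the start. It stood at 12.70 on both arrays after 9 h of hydrolysate, against 12.68 and 12.62 after 9 h of sugar. ELO3 at 18 h stood at 9.43 and 9.19 in hydrolysate, against 8.28 and 7.60 in sugar. The 9 h arrays of both feeds thus lay above all others. ELO3 rose by 3.43 in hydrolysate and 3.38 in sugar by 9 h and then fell by 3.39 in hydrolysate and fell by 4.71 in sugar. Its feed difference was 0.05 at 9 h (adjusted p = 0.892) and 1.37 at 18 h (adjusted p = 0.000745). ELO2 stood at 8.90 and 8.47 at the start, and at 9 h at 11.17 and 11.31 in hydrolysate, against 11.64 and 11.83 in sugar. After 18 h it averaged 7.91 ± 0.13 in hydrolysate, against 8.49 ± 0.205 in sugar (SD, n = 2 each), so ELO2 also peaked at 9 h. It was lower in hydrolysate at 18 h (log2 difference -0.58, adjusted p = 0.0217), where ELO1 and ELO3 were higher. HFA1, the mitochondrial counterpart of ACC1, differed by 0.23 at 9 h and -0.02 at 18 h and was not called. With the length trend removed HFA1 was 0.65 higher in hydrolysate at 18 h (adjusted p = 0.00825).

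**Figure D4:**
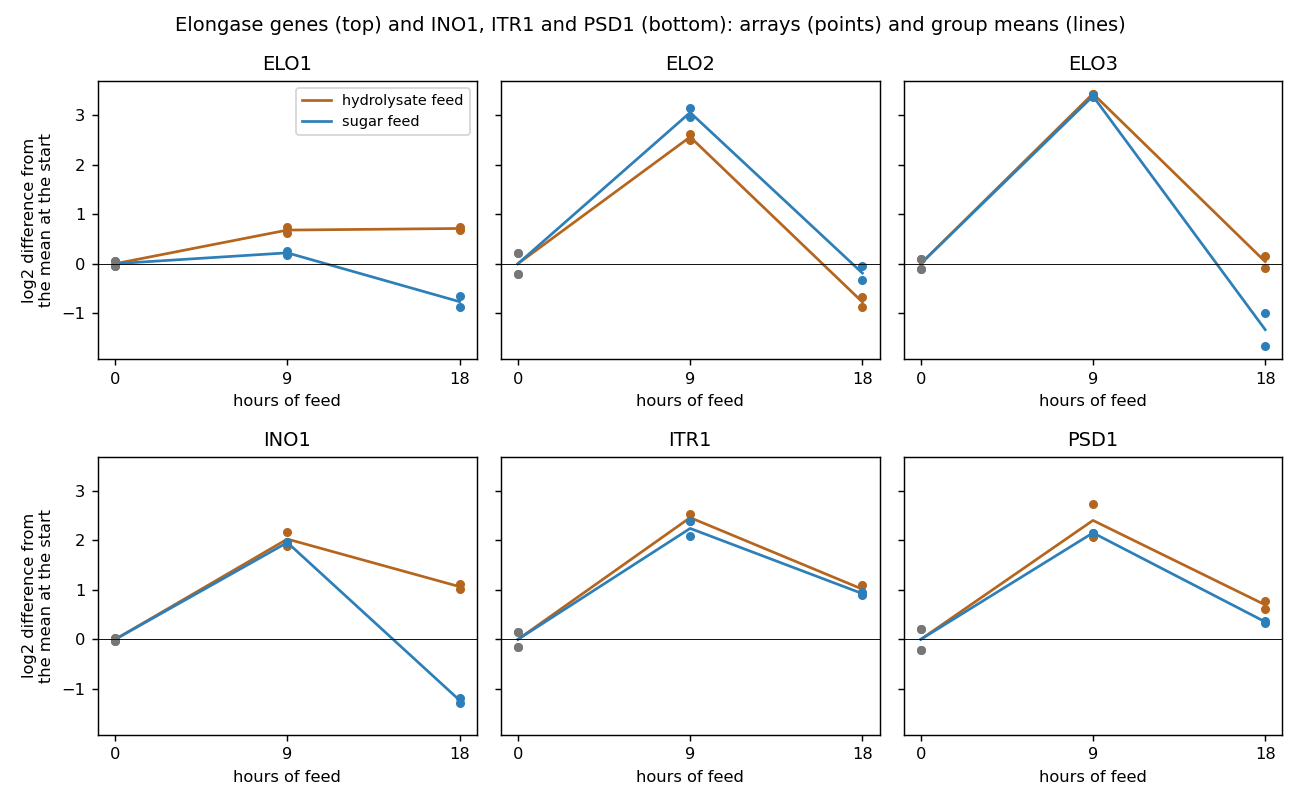
Points are single arrays and lines are group means of 6 genes, as log2 differences from the mean at the start, over hours of feed. The feeds part at 18 h for ELO3 and INO1, and for ELO1 the gap already seen at 9 h is wider at 18 h. ELO2 peaks at 9 h in both feeds and is lower in hydrolysate at both times. ITR1 and PSD1 also peak at 9 h in both feeds, with feed differences of 0.09 and 0.34 at 18 h.

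Among 13 further genes of fatty acid synthesis, elongation and activation, 3 were higher and 6 lower in hydrolysate at 18 h, and 0 higher and 1 lower at 9 h. Over all genes 31.2% were higher and 30.8% lower at 18 h, and 5.77% and 3.91% at 9 h, and the change between times was called upward for 14.3% and downward for 13.1%. The counts of every list below are to be read against these shares. The 1 at 9 h was FAA1, a long-chain acyl-CoA synthetase (log2 difference -0.88, adjusted p = 0.0256). At 18 h the largest differences were -1.61 for FAA4, its close relative (adjusted p = 0.00111), 1.37 for ELO3, and -1.37 for FAA2, which activates medium chains (adjusted p = 0.0386). The change between times was called for ELO3 (1.32, adjusted p = 0.0154), FAA4 (-1.31, adjusted p = 0.0362) and IFA38, a reductase of the elongation cycle (1.05, adjusted p = 0.0079). The call of FAA2 held in 3 of the 10 fits without 1 array, and so did the change for FAA4.

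Of 7 genes of mitochondrial fatty acid synthesis, the pathway that supplies lipoic acid, 2 were higher and 4 lower at 18 h. PPT2, which attaches the prosthetic group of the mitochondrial acyl carrier protein, was 2.26 higher (adjusted p = 0.000113). MCT1, the malonyl transferase, and ETR1, the enoyl reductase, both had -1.17 (adjusted p = 0.000153 for MCT1 and 0.0107 for ETR1). At 9 h 0 were higher and 1 was lower, the ketoacyl reductase gene OAR1 (-1.16, adjusted p = 0.0161). The feed difference changed between times for PPT2 (2.34, adjusted p = 0.00237) and MCT1 (-0.85, adjusted p = 0.0107).

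INO1 encodes inositol-3-phosphate synthase, which turns glucose 6-phosphate into inositol-3-phosphate, the precursor of the inositol in phosphatidylinositol. The gene (YJL153C) lies at chrX:134332-135933, minus strand. INO1 stood at 11.85 and 11.79 at the start. INO1 at 9 h stood at 13.98 and 13.71 in hydrolysate, against 13.78 and 13.77 in sugar. INO1 at 18 h stood at 12.94 and 12.83 in hydrolysate, against 10.64 and 10.54 in sugar. The feeds overlapped at 9 h. At 18 h hydrolysate remained above the start while sugar was below it, the lowest of the 5 groups.

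The feed difference of INO1 was 0.07 ± 0.135 at 9 h (adjusted p = 0.747, 95% interval -0.24 to 0.38). At 18 h it was 2.29 ± 0.135 (adjusted p = 2.12e-05, 95% interval 1.99 to 2.60), the largest of the 10 genes. The change between times was 2.22 ± 0.191 (adjusted p = 0.000622). The 18 h call held under every setting, with values between 2.07 and 2.43 under other processing and between 2.24 and 2.35 without 1 array. Against the start, INO1 was 4.07-fold higher at 9 h of hydrolysate and 3.88-fold higher at 9 h of sugar. It remained 2.09-fold higher at 18 h of hydrolysate, but 2.34-fold lower at 18 h of sugar (log2 difference -1.23, adjusted p = 0.000102). That last difference was -0.07 (adjusted p = 0.785) with the arrays scaled to the hybridization controls, which stood higher at the start than in every fed group. Between 9 and 18 h INO1 fell 9.09-fold in sugar (adjusted p = 3.22e-06) and 1.95-fold in hydrolysate (adjusted p = 0.00137).

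ITR1 encodes the main inositol transporter, which brings inositol into the cell from the medium. It stood at 11.30 and 11.59 at the start. ITR1 at 9 h stood at 13.98 and 13.82 in hydrolysate, against 13.83 and 13.54 in sugar. ITR1 at 18 h stood at 12.55 and 12.36 in hydrolysate, against 12.34 and 12.40 in sugar. ITR1 thus peaked at 9 h in both feeds, and the feeds overlapped at 18 h. Its feed difference was 0.22 at 9 h (adjusted p = 0.362) and 0.09 at 18 h (adjusted p = 0.646).

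Of the 5 genes of inositol uptake and inositol phosphatases, 2 were higher and 1 lower in hydrolysate at 18 h. INM1 and INM2 encode the inositol monophosphatases that complete inositol synthesis. INM2 was lower at both times, with -0.94 at 9 h (adjusted p = 0.0418), where it was the only call of this list, and -1.15 at 18 h (adjusted p = 0.0027). Its 9 h call held in 3 of the 10 fits without 1 array, and the value was -0.53 (adjusted p = 0.116) without the first 9 h hydrolysate replicate. INM1 was higher at 18 h (0.86, adjusted p = 0.0216), and so was the second transporter gene ITR2 (0.48, adjusted p = 0.015). Scaled to the hybridization controls both calls were lost, with INM1 at 0.63 (adjusted p = 0.125) and ITR2 at 0.26 (adjusted p = 0.385). Without the second late hydrolysate replicate INM1 was at 0.49 (adjusted p = 0.153). For 0 of the 5 was the change between times called by limma, and 2 of them had an unadjusted p under 0.05, beside 40.8% of all genes.

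CHO1, CHO2 and OPI3 encode steps of the CDP-diacylglycerol route: phosphatidylserine synthase and the 2 methyltransferases that turn phosphatidylethanolamine into phosphatidylcholine. CHO1 (YER026C) lies at chrV:207644-208474, minus strand. It stood at 12.64 and 12.40 at the start. CHO1 at 9 h stood at 13.16 and 12.80 in hydrolysate, against 12.80 and 12.90 in sugar. CHO1 at 18 h stood at 12.43 and 12.41 in hydrolysate, against 12.42 and 12.47 in sugar. The feeds overlapped at both times. Its feed difference was 0.13 at 9 h (adjusted p = 0.574) and -0.03 at 18 h (adjusted p = 0.889, 95% interval -0.38 to 0.33). In sugar CHO1 was 0.33 above the start at 9 h (adjusted p = 0.0903) and fell by 0.40 from 9 to 18 h (adjusted p = 0.0529). Neither was called, but both passed the threshold with quantile scaling (adjusted p = 0.0427 and 0.0426). CHO1 rose by 0.47 at 9 h of hydrolysate (adjusted p = 0.0287) and fell by 0.56 between 9 and 18 h there (adjusted p = 0.0237). Without the first 9 h hydrolysate replicate these 2 steps missed the threshold (adjusted p = 0.149 for the rise and 0.0995 for the fall). The rise also missed it without the second start replicate or either late sugar replicate, and the fall without either late hydrolysate replicate.

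CHO2 (YGR157W, the first methyltransferase) lies at chrVII:802440-805049, plus strand. It stood at 12.07 and 11.55 at the start. CHO2 at 9 h stood at 13.16 and 13.35 in hydrolysate, against 13.07 and 13.09 in sugar. CHO2 at 18 h stood at 12.81 and 12.56 in hydrolysate, against 12.30 and 12.37 in sugar. All fed arrays lay above both start arrays, with the 9 h groups highest. The feed difference was 0.17 at 9 h (adjusted p = 0.535) and 0.35 at 18 h (adjusted p = 0.128, 95% interval -0.07 to 0.78). With the length trend removed the 18 h difference was 0.68 and was called (adjusted p = 0.0164). CHO2 rose 2.71-fold at 9 h of hydrolysate and 2.41-fold at 9 h of sugar. By 18 h it stood 1.83-fold above the start in hydrolysate (adjusted p = 0.00431) and 1.44-fold in sugar (adjusted p = 0.0347). The late sugar call was lost in 5 of the 10 fits without 1 array, those without the second start replicate (adjusted p = 0.202) or any 1 of the 4 sugar arrays. It was also lost with the length trend removed, at -0.12 (adjusted p = 0.604). CHO2 fell by 0.57 from 9 to 18 h in hydrolysate (adjusted p = 0.0443) and by 0.74 in sugar (adjusted p = 0.00821).

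OPI3 (YJR073C, the second methyltransferase) lies at chrX:572315-572935, minus strand. It stood at 12.19 and 12.29 at the start. OPI3 at 9 h stood at 13.94 and 13.97 in hydrolysate, against 14.03 and 14.04 in sugar. OPI3 at 18 h stood at 13.66 and 13.51 in hydrolysate, against 13.79 and 13.85 in sugar. The hydrolysate arrays were the lower ones at both times, by a small margin. The difference was -0.08 at 9 h (adjusted p = 0.669) and -0.24 at 18 h (adjusted p = 0.117, 95% interval -0.51 to 0.04). Without the length trend the 18 h value was -0.59 and was called (adjusted p = 0.00575). OPI3 rose 3.29-fold at 9 h of hydrolysate and 3.48-fold at 9 h of sugar, and stayed 2.54-fold and 3.00-fold above the start at 18 h. From 9 to 18 h of hydrolysate it fell by 0.37 (adjusted p = 0.0425). That call, like the fall of CHO2 over the same hours, held in 2 of the 10 fits without 1 array, those that left out a start replicate.

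PSD1, the mitochondrial phosphatidylserine decarboxylase between CHO1 and CHO2, stood at 9.23 and 8.81 at the start. PSD1 at 9 h stood at 11.75 and 11.09 in hydrolysate, against 11.16 and 11.17 in sugar. PSD1 at 18 h stood at 9.63 and 9.80 in hydrolysate, against 9.40 and 9.35 in sugar. PSD1 thus rose to a peak at 9 h in both feeds and fell by 1.70 in hydrolysate and 1.80 in sugar afterwards. Its feed difference was 0.25 at 9 h (adjusted p = 0.452) and 0.34 at 18 h (adjusted p = 0.208), and neither was called. In a fit of only the arrays compared the 18 h difference passed the threshold (adjusted p = 0.0322).

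Of 12 further genes of phospholipid synthesis, 6 were higher and 3 lower in hydrolysate at 18 h. EPT1 and CPT1 encode the final enzymes of the Kennedy pathway, which uses ethanolamine and choline. EPT1 was 1.92 higher (adjusted p = 0.00016) and CPT1 1.88 higher (adjusted p = 0.000126). PIS1, the synthase that joins inositol to CDP-diacylglycerol, was 1.10 higher (adjusted p = 0.00164), with 0.53 at 9 h (adjusted p = 0.106). At 9 h 0 were higher and 1 was lower, PCT1, which makes the CDP-choline of that pathway (-0.47, adjusted p = 0.0469). Their feed difference changed between times for CPT1 (1.57, adjusted p = 0.00611), EPT1 (1.31, adjusted p = 0.0139) and PGS1, which starts cardiolipin synthesis (-0.999, adjusted p = 0.0088).

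Of 11 genes that supply phosphatidic acid and CDP-diacylglycerol, 1 was higher and 5 lower in hydrolysate at 18 h. PAH1, the phosphatidate phosphatase that diverts phosphatidic acid to storage lipid, was lower (-1.79, adjusted p = 0.000196). GPT2 and SCT1, the acyltransferases that start phosphatidic acid synthesis, had -1.12 (adjusted p = 0.000938) and -0.81 (adjusted p = 0.0183). NEM1, part of the phosphatase that activates Pah1, was the only call at 9 h (0.80, adjusted p = 0.0256). PAH1 was also the single gene of this list whose feed difference changed between times (-1.21, adjusted p = 0.0175), in 6 of the 10 fits without 1 array.

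Of 8 genes of storage lipids and their breakdown, 1 was higher and 3 were lower at 18 h. The lower ones were the lipase gene TGL4 (-1.35, adjusted p = 0.000897), the sterol acyltransferase gene ARE1 (-0.997, adjusted p = 0.00385) and the lipid droplet hydrolase gene LDH1 (-0.96, adjusted p = 0.0032). ARE2, the other sterol acyltransferase, was the only call at 9 h (0.82, adjusted p = 0.0207). A change between times was called for ARE2 (-1.09, adjusted p = 0.00917), TGL4 (-0.997, adjusted p = 0.0425) and the diacylglycerol acyltransferase gene DGA1 (0.59, adjusted p = 0.0415).

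OPI1 encodes the repressor that phosphatidic acid holds at the endoplasmic reticulum and that enters the nucleus when phosphatidic acid is used up. The gene (YHL020C) lies at chrVIII:66242-67456, minus strand. OPI1 stood at 10.32 and 10.57 at the start. OPI1 at 9 h stood at 10.65 and 10.39 in hydrolysate, against 10.38 and 10.36 in sugar. OPI1 at 18 h stood at 10.31 and 10.18 in hydrolysate, against 10.30 and 10.37 in sugar. Every pair of neighbours in the order of the 5 group means overlapped, and the means spanned 0.274, the narrowest range of the 10 genes. OPI1 was not called in any of the 9 comparisons. Its feed difference was 0.15 at 9 h (adjusted p = 0.488) and -0.09 at 18 h (adjusted p = 0.628, 95% interval -0.42 to 0.25). Scaled to the hybridization controls, OPI1 was called higher than the start in all 4 fed groups, by 0.74 to 1.30, a scaling that moved the median of all genes up by 0.932 to 1.22 against the start.

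INO2 and INO4 encode the activator pair that Opi1 opposes. INO2 stood at 7.67 and 6.94 at the start. INO2 at 9 h stood at 8.59 and 8.37 in hydrolysate, against 8.90 and 8.92 in sugar. INO2 at 18 h stood at 7.73 and 7.52 in hydrolysate, against 9.12 and 9.32 in sugar. Hydrolysate was the lower feed at both times, by the wider margin at 18 h. The difference was -0.43 at 9 h (adjusted p = 0.211) and -1.59 at 18 h (adjusted p = 0.000505). The change between times was -1.16 (adjusted p = 0.0302), a call kept in 3 of the 10 fits without 1 array. INO4 went the other way at 18 h, with 1.16 (adjusted p = 0.00693) and 0.56 at 9 h (adjusted p = 0.196). INO1 was thus higher at 18 h of hydrolysate while the transcript of its activator INO2 was lower, that of INO4 was higher and that of OPI1 was not called.

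Of 11 regulators of lipid synthesis genes in all, 1 was higher and 7 lower in hydrolysate at 18 h, where 31.2% and 30.8% of all genes were. Besides INO2, the largest differences were those of RAP1, a general activator of highly transcribed genes (-1.53, adjusted p = 0.000244), and SNF1, the kinase that phosphorylates and inhibits Acc1 (-1.38, adjusted p = 0.000488). At 9 h limma called 0 of the 11, and 5 had an unadjusted p under 0.05, beside 34.4% of all genes. For 5 regulators the change between times was called, all negative (13.1% of all genes were), with SPT23, INO2 and RAP1 (-1.07, adjusted p = 0.0184) the largest. In the 7 lists together, 16 of 67 genes were higher and 29 lower at 18 h, 2 were higher and 4 lower at 9 h, and the change between times was called for 6 upward and 11 downward. The 6 of 67 called at 9 h stand beside 9.67% of all genes, and the 17 of 67 changes between times beside 27.4%.

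Leaving out single arrays ended several calls of these other genes. All 6 calls at 9 h (FAA1, OAR1, NEM1, PCT1, INM2 and ARE2) were lost without the first 9 h hydrolysate replicate and without either 9 h sugar replicate. At 18 h the calls of ELO2, INM1 and ITR2 were lost without the second late hydrolysate or the first late sugar replicate, that of INM1 also without the second late sugar replicate, that of ETR1 without the first late sugar replicate, and that of SCT1 without any 1 of the 4 late fed arrays. For the change between times, the calls of ELO3, EPT1, PAH1, RAP1, TGL4 and DGA1 were lost without the second 9 h sugar replicate and in other such fits, and that of MCT1 without the second late sugar replicate. Other processing ended some calls as well. All 6 calls at 9 h were lost in a fit of only the arrays compared, and all but OAR1 when scaled to the hybridization controls. That scaling also ended the change between times for IFA38 (0.81), EPT1 (1.07) and DGA1 (0.36). Without the length trend, SCT1 (-0.53) and FAA2 (-1.10) lost their calls at 18 h and FAA4 (-1.07) and TGL4 (-0.66) lost theirs for the change. SPT23 kept its 18 h call there, at -0.44 (adjusted p = 0.0467). The other genes named at 18 h, apart from FAA2 (-0.90 without the second late hydrolysate replicate), kept their calls in all 10 fits without 1 array.

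Over the hours from 9 to 18 the 10 genes moved in both directions. In hydrolysate 1 was called higher, OLE1 (18% of all genes were called higher), and 4 lower: INO1, CHO1, CHO2 and OPI3 (17.1% of all genes). In sugar 2 were called higher, ACC1 and OLE1 (31.9% of all genes), and 3 lower: INO1, ELO1 and CHO2 (27% of all genes). The falls of INO1 were the largest of the 10 in both feeds, 0.96 in hydrolysate and 3.18 in sugar.

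**Figure D5:**
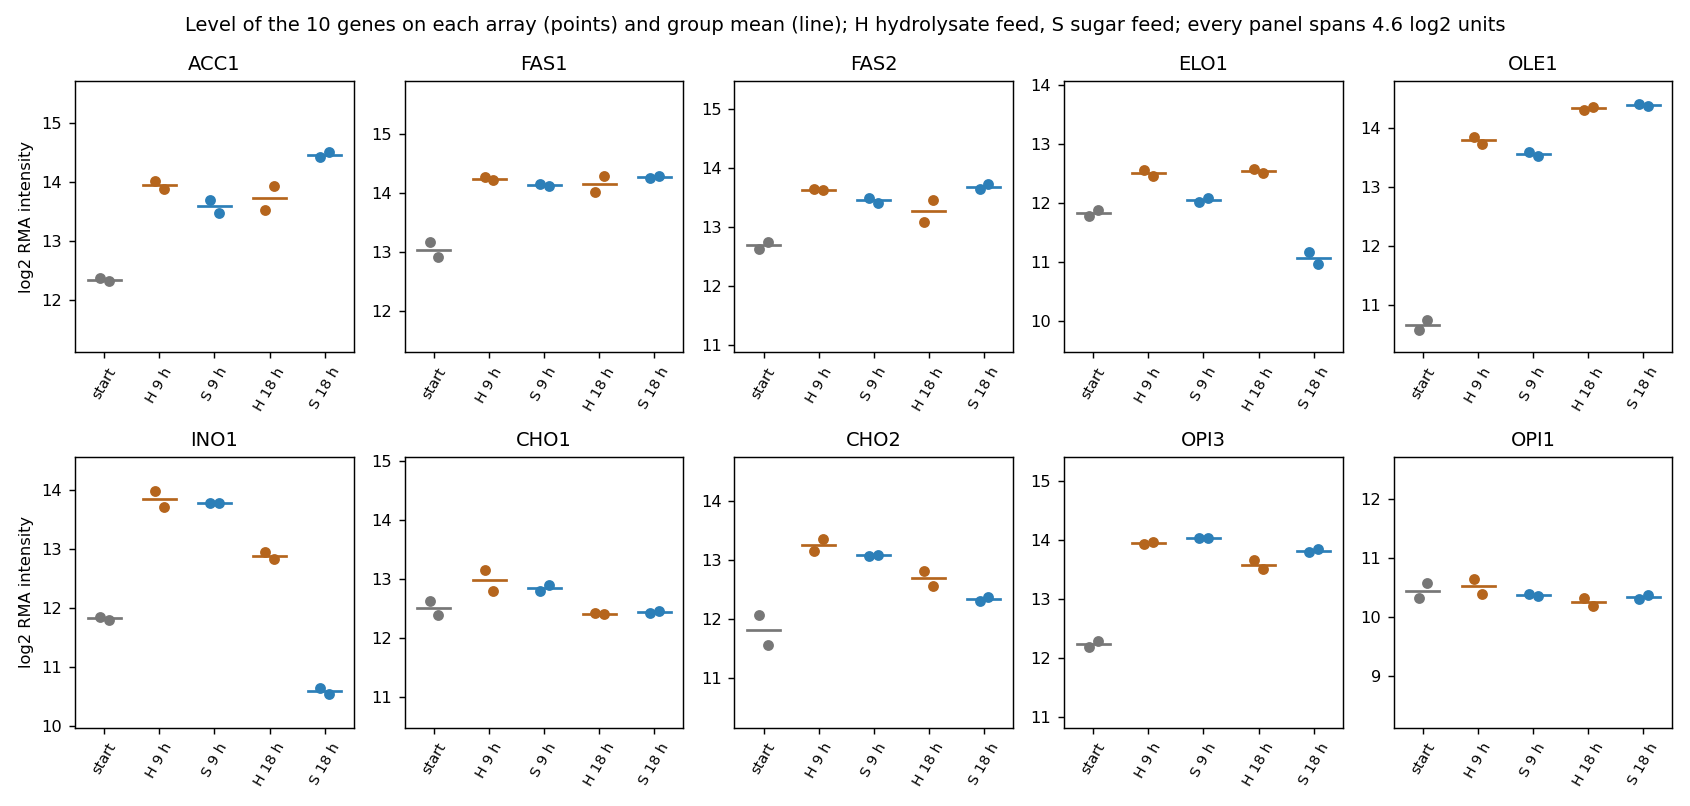
Points are the log2 RMA intensities of each of the 10 genes on single arrays and lines are group means, for the start, hydrolysate (H) and sugar (S) feeds at 9 and 18 h; every panel spans the same number of log2 units. OLE1 stands far above the start in all fed groups, INO1 and ELO1 are lowest at 18 h of sugar, and OPI1 stays flat.

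Over the 10 arrays, which are 5 groups of 2 and therefore not independent points, ACC1, FAS1 and FAS2 ran together. Pearson's r was 0.938 for ACC1 with FAS1, 0.95 for ACC1 with FAS2 and 0.928 for FAS1 with FAS2, and Spearman's rho was 0.939, 0.939 and 0.855. FAS1 also had r = 0.959 with OLE1 (rho = 0.782) and r = 0.941 with OPI3, where rho was only 0.297. INO1 had r = 0.852 with ELO1 (rho = 0.709), 0.766 with CHO2 (rho = 0.806), 0.723 with CHO1 (rho = 0.733), 0.38 with OPI3 (rho = 0.6) and -0.07 with ACC1 (rho = -0.164). These values describe the arrays and carry no test. They share the step from the start to the fed groups, and ACC1, FAS1 and FAS2 also share the length trend.

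Outside the 10 genes, those whose levels ran most like INO1 over the 10 arrays were JEM1 (r = 0.994), CLA4 (r = 0.993) and ILM1 (r = 0.993). Of 5644 genes, 106 reached r = 0.95 with INO1. For FAS1 the nearest were LCB5 (r = 0.982), BCH2 (r = 0.977) and RPI1 (r = 0.971), and 28 genes reached r = 0.95. For OLE1 the nearest were THI4 (r = 0.990), YIL067C (r = 0.987) and THI7 (r = 0.985), with 49 at r = 0.95 or above.

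The authors' deposited table of the feed comparisons calls 1 of the 10 genes, INO1, as changed at the later time, where it calls 5.38% of all genes, with a log2 difference of 2.29 and an adjusted p of 0.000744. In the authors' deposited table ELO1 has an adjusted p of 0.0909 at that time and is not called. At 9 h the authors' deposited table calls none of the 10 and 0.442% of all genes. For ACC1 at the later time it holds the same log2 difference, -0.736. The authors' p-value there is 0.942, against 0.00151 (unadjusted) in the limma fit used here. Its calls therefore do not rest on the test used here, and the 2 sets of counts are not on 1 scale.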

How the data were processed

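RNA was extracted with Trizol, amplified once and marked with biotin, per the labels' protocols. The deposited log2 values are RMA intensities; the submitters' processing notes list R 4.2.1, limma 3.52.4 and affy 1.74.0, without their roles, and no array model is named in the labels. The authors' deposited table also holds log2 differences, p-values, adjusted p-values and a call score for the feed comparisons, and its header names 17 h for the time that the labels call 18 h.

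Of 10928 probe sets, 5811 were annotated as S. cerevisiae. Leaving out 108 without a gene name and 1 with several, 5702 gave 5654 genes; where a gene had several probe sets (46 genes), the one with the highest mean was taken. A further 10 per-array columns were not used.

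The 10 arrays entered 1 limma fit (version 3.58.1 in R 4.3.3, lmFit and eBayes), which had 5 residual degrees of freedom and a prior of 3.49. Benjamini-Hochberg adjustment ran over all genes. The procedure was tested on simulated data. The 10 genes and the 7 other lipid lists were chosen with earlier results of these data known. All 10 genes are reported. From each other list, up to 3 called genes were named by size for each feed comparison and for the change between times, and 10 further genes (INO2, INO4, ITR1, PSD1, PIS1, ELO2, ELO3, HFA1, SPT23 and MGA2) whatever their values. The 3 genes most like INO1, FAS1 and OLE1 were named by Pearson's r over the 10 arrays. Intervals are 95% intervals of limma. Gene length was known for 5601 genes.

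Alternatives were another prior, a filter on dim genes, a fit of the arrays compared alone, a replicate block, 4 other scalings (quantile, median, hybridization controls, gene length), the mean of a gene's probe sets, all probe sets, a minimum log2 difference of 1 and leaving out each array. For the other lipid genes they were chosen after seeing the data. Promoter and protein sequences were not used here.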

Additional observations from a re-analysis of the deposited data

Results flagged for a closer look

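The feed difference changed between 9 and 18 h for 3 of the 10 genes by limma's test of the change itself. INO1 gained 2.22 log2 units in hydrolysate relative to sugar (adjusted p = 0.000622), higher on both hydrolysate arrays than on both sugar arrays at 18 h and overlapping at 9 h. ELO1 gained 1.02 (adjusted p = 0.00771), with hydrolysate above sugar at both times, and with 0.78 (adjusted p = 0.091) when scaled to the hybridization controls. ACC1 changed by -1.10 (adjusted p = 0.0111), with hydrolysate above sugar at 9 h and below it at 18 h. With the gene length trend removed that change was -0.41 (adjusted p = 0.185), and without the second 9 h sugar replicate -0.99 (adjusted p = 0.0501).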

How the results depend on the processing

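Of 49 called results of the 10 genes, 33 kept the call under every setting and 16 lost it under at least 1, and 17 of 41 that were not called gained one. For the other lipid genes named, 40 of 64 calls were kept under every setting and 24 were lost under at least 1, and 8 of 22 gained one.

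With a minimum log2 difference of 1, the genes called were 185 in place of 547 for the feeds at 9 h, 1769 of 3502 at 18 h and 949 of 1548 for the change between them. Against the start that minimum left 1890 of 3546 at 9 h and 1453 of 3132 at 18 h of hydrolysate, and 2117 of 3742 and 2010 of 3759 in sugar. From 9 to 18 h it left 665 of 1989 in hydrolysate and 1697 of 3332 in sugar. Of the 10 genes it left 2 of 4 calls for the feeds at 18 h, 5 of 8 for hydrolysate at 18 h against the start, 0 of 5 over time in hydrolysate and 1 of 5 in sugar. Fitting only the arrays compared gave 23 genes for the feeds at 9 h, and 1216 genes and 1 of the 10 for hydrolysate over time. Same-numbered replicates shared little deviation between groups, with correlations from -0.203 to 0.13. The sample titles give only a replicate number, so whether same-numbered samples at 9 and 18 h came from 1 culture is not known. The main fit treats all arrays as independent. The replicate block gave 337 genes for the feeds at 9 h and 3 of the 10 for hydrolysate over time.

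Scaling to the hybridization controls gave 226 genes for the feeds at 9 h and 978 for the change between times. It moved the median of all genes by 0.932 to 1.22 against the start, by -0.228 for the feeds at 18 h, by -0.233 for the change between times and by -0.291 for hydrolysate over time. The share of calls that were higher was then 37.6% in place of 50.3% for the feeds at 18 h, 32.2% in place of 52.3% for the change, 16.3% in place of 51.3% for hydrolysate over time, and 92.2% to 95.3% in place of 51.3% to 59.9% against the start. Under it these differences from the start turned sign and were called in at least 1 of the 2 fits: CHO1 0.83 and OPI1 0.74 at 18 h of hydrolysate, OPI1 1.14 at 9 h of sugar, and ELO1 0.39, CHO1 1.09 and OPI1 1.05 at 18 h of sugar. With the gene length trend removed, 5 of the 10 in place of 8 were called at 18 h of sugar against the start. Values that then turned sign and were called in at least 1 of the 2 fits were FAS1 0.53, FAS2 0.21 and HFA1 0.65 for the feeds at 18 h, FAS2 -0.0089 and CHO2 -0.12 at 18 h of sugar against the start, and FAS1 -0.66 and FAS2 -0.53 over time in sugar. Values called in neither fit also turned sign: with the length trend removed OLE1 0.06 for the feeds at 18 h, FAS1 0.42 and FAS2 0.03 for the change, CHO1 0.11 at 18 h of sugar and OPI1 -0.07 at 9 h of hydrolysate against the start. Scaled to the controls, CHO2 was at -0.05 for the change and ELO1 at -0.26 for hydrolysate over time, and with quantile scaling OLE1 was at 0.05 for the feeds at 18 h. Without 1 array, 12 further such values of the 10 genes turned sign. The causes were not tested.

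Without 1 array, the feeds at 9 h gave 0 to 1 of the 10 and 30 to 1550 genes, lowest without the second 9 h sugar replicate and highest without the second 9 h hydrolysate replicate. The feeds at 18 h gave 3 to 4 and 2654 to 3675 genes, and the change between times 2 to 4 and 653 to 1889 genes, lowest without the second 9 h sugar replicate, when the ACC1 change had an adjusted p of 0.0501. Hydrolysate against the start gave 8 to 9 and 3251 to 3429 genes at 9 h, and 7 to 8 and 2387 to 3334 genes at 18 h. Sugar against the start gave 7 to 8 and 3063 to 3906 genes at 9 h, and 7 to 8 and 2953 to 3883 genes at 18 h. From 9 to 18 h, hydrolysate gave 2 to 5 and 1122 to 2245 genes, and sugar 5 to 6 and 2530 to 3537 genes.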

Other observations

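Of the 11 regulators, 3 were called higher than the start and 1 lower at 18 h of hydrolysate, against 9 higher and 0 lower at 18 h of sugar. Over all genes 33.2% were higher and 22.2% lower at 18 h of hydrolysate, and 36.8% higher and 29.7% lower at 18 h of sugar. Of the 8 storage lipid genes, 6 were called higher than the start and 1 lower at 18 h of hydrolysate, and 6 higher and 0 lower at 18 h of sugar. In the inositol list, 3 of 5 genes were called higher than the start and 0 lower at 9 h of hydrolysate (33.6% and 29.1% of all genes), and 4 of 5 higher and 1 lower at 9 h of sugar (33.9% and 32.2% of all genes). These counts share the start arrays and carry no test of the lists.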
